A study of Rattus norvegicus with 67 samples.

Results

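Normal endometrium of rats on a high fat diet given liraglutide was compared with that of rats on this diet given nothing, across every transcript measured by RNA sequencing. The comparison took the libraries of the second sequencing batch that the labels call normal endometrium and high fat diet (HFD), with liraglutide or with no intervention. This gave 16 libraries of the 65 in the series, 12 from 9 liraglutide rats and 4 from 4 rats with no intervention. Liraglutide rat 19 gave 3 libraries and liraglutide rat 20 gave 2, and each rat was counted as 1 unit, so that 13 rats entered the comparison. Libraries with the same number in a group were taken to come from a single animal, which the labels do not state.

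All were female virgin BDII/Han rats, a strain that develops endometrial cancer spontaneously, and all were fed a diet with 60% of its energy as fat, 20% as carbohydrate and 20% as protein from 3 months of age until the end of the experiment at 15 months. The liraglutide rats also had free access to this diet, and were injected under the skin every day with a dose that was raised over 8 days from 0.01 to 0.24 mg/kg/day. The labels do not give the age at which the injections began. Normal endometrium of 10 HFD rats on diet restriction, whose access to the same diet was limited from 12 months of age, is given beside the results as a second intervention in the same sequencing batch. Animal numbers 16 and 17 occur among both the liraglutide rats and the rats with no intervention, and number 14 among both the liraglutide and the diet restriction rats. The labels do not say whether a shared number means a shared animal. The main comparison of liraglutide with no intervention was therefore also fitted without numbers 16 and 17 and without liraglutide rat 14. The fits over 3 groups and by DESeq2 included all of these rats. Liraglutide rats 19 and 24 and diet restriction rats 2 and 9 also carried tumours that were sequenced separately. No fit was run without these diet restriction rats.

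Liraglutide is a long-acting agonist of the receptor for glucagon-like peptide 1 (GLP-1), a gut hormone released after meals. Activation of this receptor raises glucose-dependent insulin secretion, slows gastric emptying and lowers appetite, and the drug is used in type 2 diabetes and for weight loss. The endometrium, the lining of the uterus, is a mixture of glandular and luminal epithelium, stroma, vessels and immune cells, and is remodelled under oestrogen and progesterone over each cycle. Adipose tissue is a source of oestrogen, and obesity is a known risk factor for endometrial cancer. The stage of the oestrous cycle at tissue collection is not given in the labels.

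The values were estimated read counts per transcript. A library held 17.9 to 18.9 M (M, 1000000) estimated counts in the rats with no intervention and 16.7 to 20.0 M in the liraglutide rats. Per rat, taken as the mean of its libraries, the total was 18.5 ± 0.437 M (SD, n = 4) against 18.0 ± 0.768 M (SD, n = 9), a difference within the spread between rats (exact permutation test over 715 arrangements of the rats, two-sided, p = 0.31, adjusted p = 0.63 over 4 measures). The number of transcripts reaching 5 estimated counts was 19686 ± 329 (SD, n = 4) with no intervention and 19879 ± 228 (SD, n = 9) with liraglutide (the same exact test, p = 0.24, adjusted p = 0.63). This difference of 192 transcripts was 67.2 without rat 15 with no intervention, 335 without rat 17 with no intervention (exact permutation p = 0.055), and 25 when 1 estimated count was enough. Neither the length of the sequenced fragments (170.1 ± 1.21 against 169.1 ± 3.88 bases, exact permutation p = 0.65) nor the share of counts held by the 10 most abundant transcripts (13.6% ± 1.62 against 13.1% ± 2.24, exact permutation p = 0.65) differed beyond the spread between rats. The files name transcripts by Ensembl identifiers that no table used here pairs with genes. The labelled tissue could therefore not be checked against markers of epithelium, stroma, smooth muscle or immune cells, no gene list of the GLP-1, insulin, oestrogen or other pathways could be read out, and only 4 transcripts are named. In whole tissue, moreover, fewer cells of a type and less RNA per cell cannot be told apart.

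Libraries were first compared with one another, by Pearson's correlation of log2(scaled CPM + 1) over 19923 transcripts, where scaled CPM are estimated counts per 1000000 after scaling by the median of ratios. These values describe likeness only, since all pairs share the same transcripts. Pairs of libraries from different liraglutide rats had a median correlation of 0.942 (0.849 to 0.978, 62 pairs). Pairs of libraries with no intervention had 0.954 (0.929 to 0.963, 6 pairs), and pairs of unlike group and number 0.935 (0.877 to 0.967, 46 pairs). The ranges of the within-group and between-group pairs therefore overlapped.

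**Figure D1:**
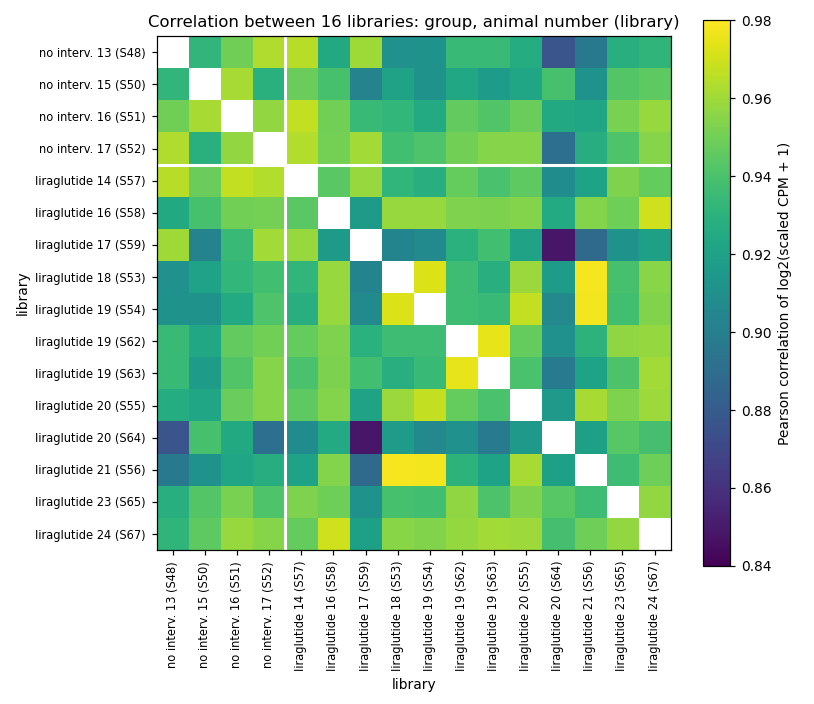
Pearson correlation (colour, unitless) between the 16 libraries, each labelled by group, animal number and library, with white lines between the groups. Library S57 of liraglutide rat 14 is bright against all 4 libraries with no intervention (0.948 to 0.967), and library S64 of liraglutide rat 20 is dark against most others.

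Several liraglutide libraries stood apart from the rest. The library of liraglutide rat 14 correlated more closely with the libraries of no intervention (mean 0.961) than with those of other liraglutide rats (mean 0.939), and that of liraglutide rat 17 did the same (0.940 against 0.913). S63 of liraglutide rat 19 was nearly level (0.937 against 0.936). In 3 of the 4 rats with no intervention, numbers 13, 16 and 17, the closest library of all was that of liraglutide rat 14. Library S64 of liraglutide rat 20 had the lowest mean correlation with the others (0.911) and the fewest transcripts at 5 estimated counts or more (18762), although it had the largest total (20.0 M).

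Libraries of the same rat were not always each other's closest match. In liraglutide rat 19, S62 and S63 correlated at 0.975, but S54 correlated with them only at 0.937 and 0.934 and was closest to the library of liraglutide rat 21 (0.977). In liraglutide rat 20, S55 and S64 correlated at 0.916. For the median transcript, the SD on the log2 scale was 0.282 between the 3 libraries of rat 19 and 0.299 between the 2 libraries of rat 20, against 0.330 between the 9 liraglutide rats and 0.287 between the 4 rats with no intervention. These SDs rest on 2 to 9 values and are given as a description. For the shared animal numbers, the libraries correlated at 0.950 for number 16 and 0.961 for number 17. In both pairs the library with no intervention was closer to that of liraglutide rat 14 (0.967 and 0.964). From the other side, the closest library to that of liraglutide rat 17 was that of rat 17 with no intervention. The library of liraglutide rat 16 was closest to that of liraglutide rat 24 (0.970).

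On principal components of the 13 rats, the first component (32.4% of the variance) placed the rats with no intervention between -65.0 and -5.70. Of the 9 liraglutide rats, 7 lay between 13.1 and 63.3, above all 4. Liraglutide rat 14 at -37.1 and liraglutide rat 17 at -72.9 lay among or beyond the rats with no intervention. The second component (18.4%) separated mainly rat 15 with no intervention, at 74.3, from the others.

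**Figure D2:**
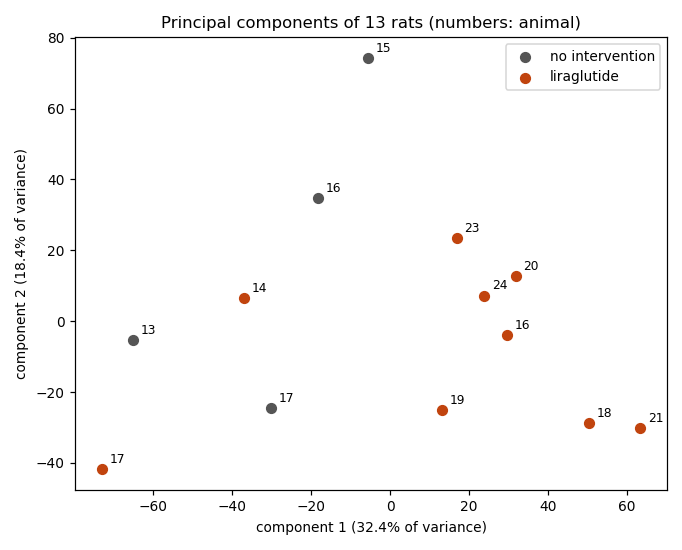
First against second principal component (arbitrary units, percent of variance on each axis) of log2(scaled CPM + 1) for the 13 rats, numbered by animal, with liraglutide in orange and no intervention in grey. All liraglutide rats except 14 and 17 lie to the right of the 4 rats with no intervention.

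A transcript was tested where 47% or more of the rats had 5 estimated counts or more. Of the 20050 tested, none was called different between liraglutide and no intervention at an adjusted p under 0.05 (0%; limma voom on counts summed per rat, Benjamini-Hochberg adjustment), and the smallest adjusted p was 0.065. At an unadjusted p under 0.05 there were 2449 transcripts (12.2%), of which 921 were higher with liraglutide (4.59% of those tested) and 1528 were lower (7.62%). The transcripts lowest in p leaned further to one side, with 83 of the first 100 lower with liraglutide and 17 higher. edgeR's quasi-likelihood test on the same sums also called none, with 2604 (13.0%) at an unadjusted p under 0.05.

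The direction of this lean depended on scaling and test. With scaling by library size alone, which moved the median log2 fold change of all transcripts from 0.0042 to 0.15, 1908 of the 2694 transcripts at an unadjusted p under 0.05 were higher with liraglutide and 786 were lower, the opposite of the split above. The split was 1027 higher against 1387 lower with TMM scaling, 1262 against 1342 by edgeR and 1613 against 1502 by DESeq2.

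The log2 fold changes of 90% of the transcripts lay between -0.89 and 1.05, with a median standard error of 0.27, and the 95% interval of the difference was 1.16 log2 units wide for the median transcript. A log2 fold change above 1 was found in 1077 transcripts and below -1 in 842, none of them past the threshold. In 77 transcripts (0.384% of those tested) every liraglutide rat was above every rat with no intervention, and in 65 (0.324%) every liraglutide rat was below. The 3 transcripts under an adjusted p of 0.1 were all lower with liraglutide, with log2 fold changes of -2.51, -1.76 and -2.03, and in all 3 the groups did not overlap. The first 2 of them were scarce, with a mean log2 CPM of 0.51 and 0.56, and the third had 3.33.

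**Figure D3:**
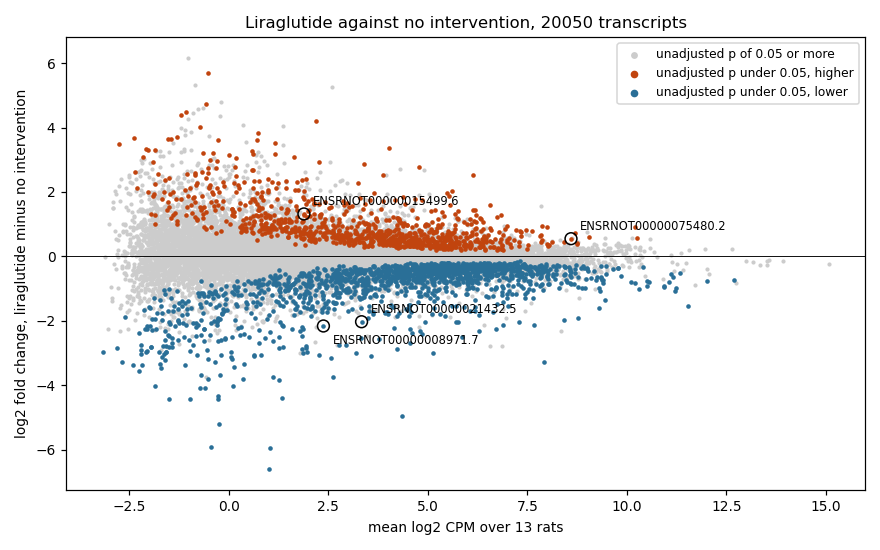
Log2 fold change (liraglutide minus no intervention) against mean log2 CPM over the 13 rats for 20050 transcripts, with those at an unadjusted p under 0.05 in orange (921 higher) or blue (1528 lower) and the 4 named transcripts circled. None passed an adjusted p of 0.05, and on the right of the plot, among abundant transcripts, blue points outnumber orange.

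The lean was uneven over the range of abundance. Among the 1171 transcripts above a mean log2 CPM of 7, 211 were lower and 32 higher with liraglutide at an unadjusted p under 0.05, together 20.8% of that class. Among the 4604 transcripts at a mean log2 CPM of 1 or less, 222 were lower and 188 higher, together 8.91%. With scaling by library size alone these counts were 111 lower and 91 higher in the most abundant class, and 168 lower and 262 higher in the least abundant, where the split turned round. The median log2 fold change passed in order from 0.13 in the least abundant class through 0.06, 0.02 and -0.05 to -0.14 in the most abundant. Under TMM scaling it went from 0.15 to -0.12, and under library size alone from 0.28 to -0.00074. A change of scaling multiplies all transcripts of a rat by the same factor. It moves the level of the descent and could hardly alter the descent, so these scalings do not test it. Abundant transcripts also had smaller standard errors, 0.17 for the median transcript of the most abundant class against 0.60 in the least abundant. By transcript length the median log2 fold change was 0.02, -0.01, 0.01 and 0.02 in transcripts up to 1000, 2000 and 4000 bases and beyond, in no order. The share at an unadjusted p under 0.05 went up with length, from 9.75% through 12.2% and 12.6% to 13.6%. In the same classes 199, 491, 583 and 255 transcripts were lower and 90, 274, 343 and 214 higher, so that the lean to lower values was greatest in the shortest transcripts.

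**Figure D4:**
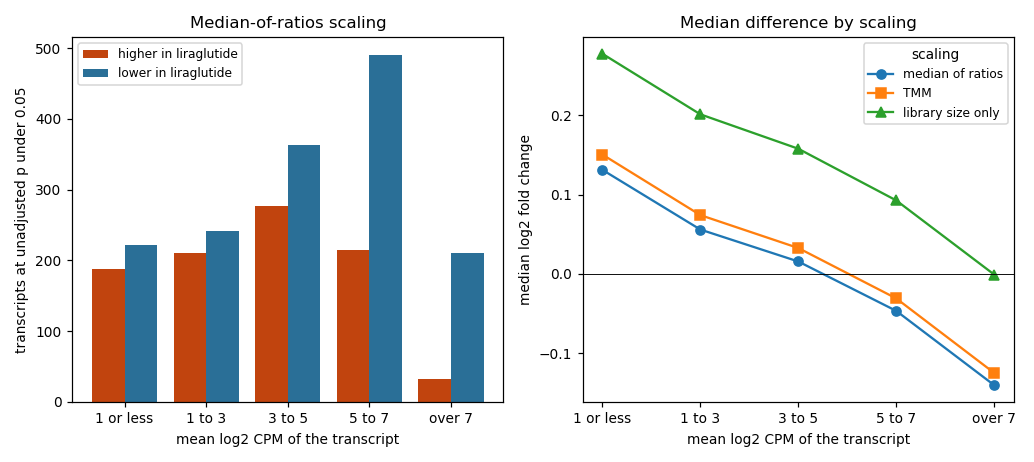
Left, number of transcripts at an unadjusted p under 0.05, higher (orange) or lower (blue) with liraglutide, in 5 classes of mean log2 CPM under median-of-ratios scaling; right, median log2 fold change of each class under 3 scalings. Lower transcripts outnumber higher ones most in the upper classes (211 against 32 above 7), and all 3 lines descend from left to right. A change of scaling moves all classes by about the same amount, so the likeness of the lines was fixed in advance.

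The same 1171 abundant transcripts held 57.8%, 61.9%, 58.3% and 54.7% of all estimated counts in rats 13, 15, 16 and 17 with no intervention. In the liraglutide rats they held between 51.9% and 58.6%, with a median of 55.1%. The groups overlapped, and the mean was 58.2% ± 2.96 (SD, n = 4) with no intervention against 55.6% ± 2.34 (SD, n = 9) with liraglutide. In the diet restriction rats the share was 53.7% ± 2.08 (SD, n = 10).

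Named transcripts were the 2 in each direction with the smallest p among those whose mean log2 CPM reached 1, and none of the 4 passed the threshold. They were chosen by this very contrast, so that their separation describes them and supports nothing. Levels below are in scaled CPM, averaged over the libraries of a rat. They are not corrected for length and are not to be compared between transcripts.

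Of the named transcripts ENSRNOT00000021432.5 (3301 bases) had the smallest p, and it was lower with liraglutide. Its level was 30.4, 35.98, 19.1 and 26.5 scaled CPM in rats 13, 15, 16 and 17 with no intervention. In the 9 liraglutide rats its level ran from 2.26 in rat 21 to 11.3 in rat 17, with a median of 8.21. Every liraglutide rat was below the lowest rat with no intervention, and rats 18, 19 and 21, with 4.71, 5.00 and 2.26 scaled CPM, were the lowest. The log2 fold change was -2.03 (SE 0.30, adjusted p = 0.067, limma voom). The libraries of rat 19 gave 5.94, 3.92 and 5.15 scaled CPM, close to one another, whereas S55 of rat 20 gave 12.5 and S64 of the same rat 3.28.

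ENSRNOT00000008971.7 (4618 bases) was also lower with liraglutide. Rats with no intervention had 35.1, 8.97, 12.4 and 13.3 scaled CPM in rats 13, 15, 16 and 17. Liraglutide rats had 1.66 to 7.72 scaled CPM with a median of 3.70, the highest being rat 14. The groups did not overlap, but the gap between liraglutide rat 14 and rat 15 with no intervention was small, and rat 13 with no intervention was far above its group. The log2 fold change was -2.16 (SE 0.37, adjusted p = 0.17, limma voom), and -1.76 (SE 0.31, adjusted p = 0.26, limma voom) without that rat.

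Of the transcripts higher with liraglutide, ENSRNOT00000075480.2 (2485 bases) had the smallest p and was abundant. Its level was 295.7, 356.6, 339.0 and 259.0 scaled CPM in rats 13, 15, 16 and 17 with no intervention. The liraglutide rats had 368.7 in rat 16 to 544.7 in rat 23, with a median of 447.3 scaled CPM. The groups did not overlap, with liraglutide rat 16 only just above rat 15 with no intervention. The log2 fold change was 0.55 (SE 0.12, adjusted p = 0.29, limma voom).

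ENSRNOT00000015499.6 (4519 bases) was higher with liraglutide from a low level. Rats 13, 15, 16 and 17 with no intervention had 1.15, 2.24, 2.68 and 2.28 scaled CPM. The liraglutide rats had 3.26 in rat 14 to 7.74 in rat 18, with a median of 4.76 scaled CPM. The groups did not overlap when libraries were averaged per rat, although S64 of liraglutide rat 20 alone, at 2.67 scaled CPM from 46 estimated counts, lay just under rat 16 with no intervention. The log2 fold change was 1.32 (SE 0.30, adjusted p = 0.29, limma voom).

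**Figure D5:**
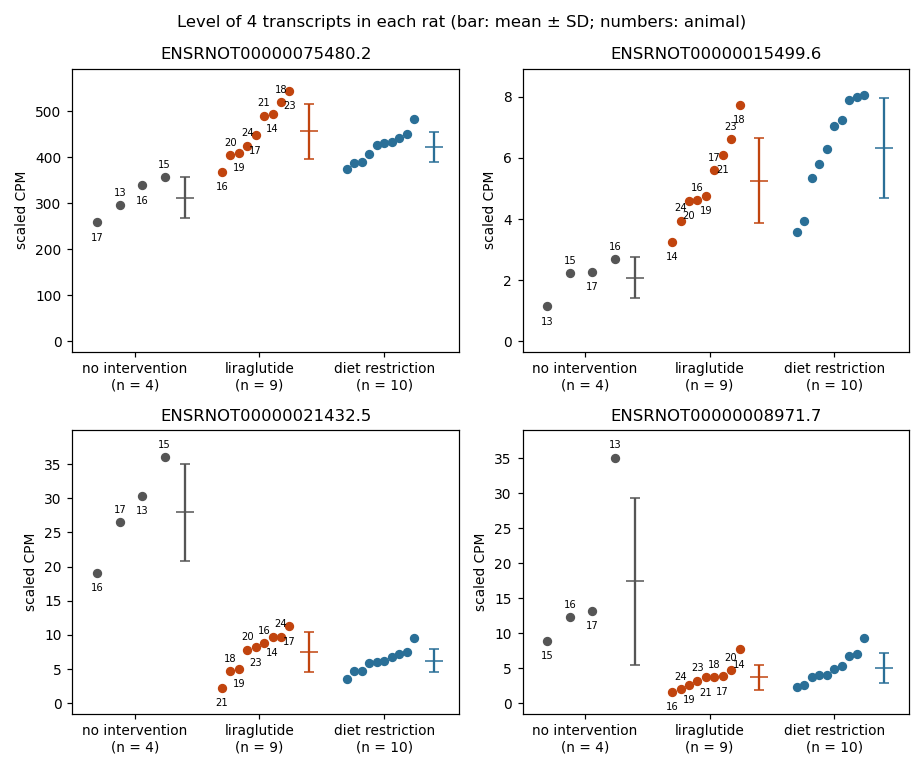
Level in scaled CPM of the 4 named transcripts in each rat with no intervention (grey), liraglutide (orange) or diet restriction (blue), numbered by animal in the first 2 groups, with bars at the mean ± SD. In every panel the liraglutide rats lie wholly to one side of the 4 rats with no intervention, by which the transcripts were chosen, and overlap the diet restriction rats.

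Diet restriction gave levels like those of liraglutide in all 4 transcripts. They were chosen for how far the 4 rats with no intervention lay from the liraglutide rats. This likeness therefore describes the levels and supports nothing about diet restriction. ENSRNOT00000021432.5 had 3.63 to 9.56 scaled CPM in the 10 diet restriction rats (median 6.13), and ENSRNOT00000008971.7 had 2.27 to 9.32 (median 4.51). ENSRNOT00000075480.2 had 374.5 to 483.9 scaled CPM (median 429.6), and ENSRNOT00000015499.6 had 3.59 to 8.07 (median 6.67). Liraglutide and diet restriction rats overlapped in every case.

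In 1 fit of the 3 groups over counts summed per rat, the log2 difference between liraglutide and diet restriction was 0.14 (95% interval -0.39 to 0.67) for ENSRNOT00000021432.5, -0.45 (-1.14 to 0.23) for ENSRNOT00000008971.7, 0.11 (-0.06 to 0.27) for ENSRNOT00000075480.2 and -0.29 (-0.66 to 0.08) for ENSRNOT00000015499.6. The adjusted p lay between 0.37 and 0.79 (limma voom), which does not show that the interventions act alike. Over the whole table of 20281 transcripts none was called between liraglutide and diet restriction (0%, limma voom). At an unadjusted p under 0.05 there were 3904 (19.2%), 2013 higher and 1891 lower with liraglutide. Between liraglutide and no intervention, with fewer rats in the second group, the same fit had 3218 (15.9%). Both interventions share the same 4 rats with no intervention as their reference.

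The absence of calls held in some fits and not in others. When the diet restriction rats were added to estimate the spread, 77 transcripts were called between liraglutide and no intervention, 7 higher and 70 lower (0.38% of 20281, limma voom on sums per rat), and 3 of the 4 named transcripts were among them, all but ENSRNOT00000015499.6. Over the 26 libraries of the 3 groups, with duplicateCorrelation for libraries of a rat, 203 were called, 20 higher and 183 lower (1.02% of 19954). The correlation estimated between libraries of a rat was only 0.00025 in that fit, so that they entered almost as separate units. DESeq2 on the 13 rats called 265, 142 higher and 123 lower (1.32% of 20050), among them all 4 named transcripts. Of the 77 transcripts, 43 were also called by DESeq2, which is 55.8% of the 77 and 16.2% of the 265.

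Without animal numbers 16 and 17 in either group, again none was called by limma voom. At an unadjusted p under 0.05 there were 2929 (14.5% of those tested), and the smallest adjusted p was 0.057 (limma voom). The log2 fold changes were then -2.45 for ENSRNOT00000021432.5, -2.33 for ENSRNOT00000008971.7, 0.53 for ENSRNOT00000075480.2 and 1.63 for ENSRNOT00000015499.6. Without liraglutide rats 16 and 17 alone there were also no calls, with 3536 (17.6%) at an unadjusted p under 0.05. Between the rats that share a number, ENSRNOT00000021432.5 was at 0.462 of its level with no intervention in number 16 and at 0.425 in number 17. ENSRNOT00000008971.7 was at 0.134 and 0.290, ENSRNOT00000015499.6 at 1.72 and 2.46, and ENSRNOT00000075480.2 at 1.09 and 1.73 of that level. The groups did not overlap in any named transcript, so the direction of these ratios was fixed in advance. The ratios do not tell whether a shared number means a shared animal.

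Leaving out a single rat moved the count at an unadjusted p under 0.05. It lay between 1636 (8.05% of 20312), without rat 13 with no intervention, and 3615 (17.8% of 20305), without liraglutide rat 17. With all 13 rats it was 2449 (12.2% of 20050). Without liraglutide rat 17 the limma voom fit called 1 transcript, and without liraglutide rat 14 also 1, with 2942 (14.5%) at an unadjusted p under 0.05. Without rat 15 with no intervention it called 2, and all of these calls were lower with liraglutide. On the first component liraglutide rat 14 lay within the range of the rats with no intervention and liraglutide rat 17 beyond its far end, and the reason for their position was not tested. Without library S64 of liraglutide rat 20 there were no calls, with 2551 (12.8%) at an unadjusted p under 0.05.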

How the data were processed

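The authors trimmed reads of polyadenylated RNA (paired ends), pseudo-aligned them with Kallisto to the rat transcriptome (Rnor_6.0) and deposited estimated counts per transcript and library, neither rounded nor scaled between libraries; the submitters' processing notes name sleuth. The authors also deposited TPM, on a scale that sums to the same total in each library and recorded here as a score, used only to rebuild counts for an alternative, and effective lengths, used for fragment length. Kallisto shares reads between near-identical transcripts, so counts of close isoforms are uncertain.

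Estimated counts were summed per rat, filtered, scaled by the median of ratios and fitted with limma 3.58.1 (voom, robust empirical Bayes) in R 4.3.3, only the 2 groups compared entering. edgeR 4.0.16 and DESeq2 1.42.0 were run on rounded sums. Scaled CPM came from the 26 libraries of 3 groups. The steps were also run on simulated counts with planted differences and the same spread between rats set for every transcript. That run does not vouch for the calls made in these data. Totals per rat were compared by exact permutation. The labels do not tie rats to cages, days or preparations, and p-values cover only the spread between these rats. No gene symbols could be matched, so the lists and markers set out for this work were not applied. The members and lists were chosen with earlier results of these data known.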

Additional observations from a re-analysis of the deposited data

Results flagged for a closer look

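Each group of 4 to 10 rats was examined for a rat far from the rest of its group in the 4 named transcripts and in total counts, detected transcripts, fragment length and the share of the 10 most abundant transcripts. Over 24 groups of values, of which chance alone marks about 1 in 20, 2 were marked. Rat 13 with no intervention had 35.1 scaled CPM of ENSRNOT00000008971.7, and the next highest of the 4 rats had 13.3. Without rat 13 with no intervention the log2 fold change of this transcript was -1.76, against -2.16 with it. Leaving out the highest rat of the group with no intervention could not make the groups overlap. Among the 10 diet restriction rats, rat 3 had the shortest sequenced fragments at 162.8 bases, and the next shortest had 168.1. That rat enters none of the comparisons of liraglutide with no intervention other than those fitted over 3 groups.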

How the results depend on the processing

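The count of 0 called transcripts was also 0 with TMM, with library size alone, with empirical Bayes made non-robust, with edgeR, with total counts as a term, with the first library of each rat, without animal numbers 16 and 17 in both or in the liraglutide group, and without liraglutide rats 19 and 24. It was 77 in the 3-group fit per rat, 203 over 26 libraries, 265 by DESeq2 (1197 transcripts without an adjusted p), 4 over 16 libraries with duplicateCorrelation, 1 with filterByExpr, 4 without a filter, 2 with counts rebuilt from TPM and 1 without liraglutide rat 14. The correlation between libraries of a rat was estimated at 0.00025 over 26 libraries and 0.012 over 16, so that these libraries counted almost as separate units. Adding 10 rats raised the residual degrees of freedom from 11 to 20 and the transcripts tested from 20050 to 20281; the cause of these differences was not tested. Leaving out 1 rat gave 0 to 2 calls. With the replicate block (animal number fixed, 1 residual degree of freedom) 0 were called, which says nothing about stability; with the number as a random block, a choice made after seeing the data, 0 were called. In numbers 16 and 17 the deviations from the group means correlated at 0.049 and 0.18 across transcripts, and the labels do not pair them. Pairs of unlike number ran from -0.40 (rat 15 with no intervention and liraglutide rat 17) to 0.47 (rat 13 with no intervention and liraglutide rat 17). Also added after seeing the data, the last library of each rat and leaving out S64 gave 0 calls each. The named transcripts kept their direction in all 34 alternatives, among which the fit without liraglutide rat 14 was counted 2 times. They were chosen by this contrast in the same rats, so their direction could hardly turn and this is no sign of stability. None of the totals, detected transcripts or differences from diet restriction passed its threshold in any alternative run. Sums per gene and lists were not run for lack of symbols.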
